A study of Equus caballus with 2 samples.

Results

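The 9 genes described here encode secreted metalloproteases of the ADAMTS family (a disintegrin and metalloproteinase with thrombospondin motifs). They are *ADAMTS1*, *ADAMTS4*, *ADAMTS5* and *ADAMTS9*, whose products cut large hyaluronan-binding proteoglycans such as versican and aggrecan, *ADAMTS7* and *ADAMTS12*, whose products cut cartilage oligomeric matrix protein (COMP), and *ADAMTS6*, *ADAMTS10* and *ADAMTS17*, whose products are tied to fibrillin microfibrils. The members were chosen by gene symbol, and all 9 were found among the 21426 genes of the count tables. The data were single cell transcriptomes of cultured equine endometrial fibroblasts at passage 3, grown on collagen-coated hydrogels. The medium held serum at first, and serum albumin in place of serum during the 24 h of treatment. Control cells received no supplement, and the exposed cells, which form the TGF-β1 library, received human recombinant TGF-β1 at 10 ng/ml for 24 h. The comparison asks which of these protease transcripts differed after exposure to the cytokine. Each library held cells from 4 mares, pooled per treatment group, so the contribution of each mare was not separated here.

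ADAMTS proteases are made as inactive precursors, are activated by proprotein convertases such as furin, and act on the matrix outside the cell. TIMP3 is their best known tissue inhibitor, and the endocytic receptor LRP1 takes several of them up from the cell surface. Versican cleavage by the proteoglycan-cutting members takes part in ovulation and in the remodelling of reproductive and cardiovascular tissues. ADAMTS10 and ADAMTS17 are known from inherited disorders of short stature and stiff connective tissue, in which fibrillin microfibrils are affected. In fibroblasts, TGF-β1 is the classical inducer of matrix production.

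With 1 library per condition there was no replicate check and no test of the treatment. All intervals are 95% exact binomial intervals and cover counting error only. Cells were kept with at least 20000 unique molecular identifiers (UMIs, each standing for 1 captured transcript), at least 3500 genes and under 4% mitochondrial UMIs. The control library held 4384 barcodes, of which 3865 were kept, with a median of 50313 UMIs per cell. The TGF-β1 library held 5124 barcodes, of which 4513 were kept, with a median of 43142 UMIs. The libraries shared 6 barcode sequences, 2 of them among the kept cells.

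The labelled cell type was checked against its markers. At least 1 UMI of *VIM*, *COL1A1* and *COL1A2* was found in 100% of the kept cells of both libraries, each cell thinned at random to 20000 UMIs. The epithelial markers *EPCAM* and *CDH1* had at most 6 UMIs per library, the endothelial markers *PECAM1* and *CDH5* at most 9, and the leukocyte marker *PTPRC* 1 UMI in control and 0 in exposed cells. Of the 8 fibroblast markers, 3 were higher and 5 lower after TGF-β1, with *PDGFRA* (log2 ratio −1.60) and *THY1* (−1.30) past 2-fold, while their summed level was 17259 UMIs per 1000000 (CPM) in control and 16212 CPM in exposed cells. Of the 6 epithelial markers found, *KRT8* (−4.67) and *KRT7* (−1.46) were past 2-fold lower. The list's summed level was 134 CPM and 12.3 CPM, nearly all from these genes. Unlike *EPCAM* and *CDH1*, *KRT8* was found in 25.3% of thinned control cells and 3.19% of exposed cells, and *KRT7* in 22.9% and 11.5%. The epithelial markers thus differed among themselves. Of 5 smooth muscle or pericyte markers *CNN1* (1.23) was past 2-fold higher, with sums of 4542 and 5853 CPM. All 9 cycling markers found were lower, *CDC20* (−1.36) and *CDK1* (−1.23) past 2-fold, with sums of 88.3 and 57.6 CPM. The 5 endothelial markers summed to 1.34 and 1.38 CPM, the 5 immune markers to 56.7 and 52.9 CPM, nearly all from *CD68* and *CD14*, and the 3 chondrocyte markers to 0.461 and 1.66 CPM, nearly all from *SOX9* (1.86). These markers moved to different degrees with the treatment, and their part in the results below was not tested.

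The summed transcripts of the 9 proteases hardly differed between the libraries, while their make-up did. The control library had 61876 protease UMIs (294 CPM) and the TGF-β1 library 61664 (281 CPM). In the control library *ADAMTS12* held the largest share of these UMIs at 29.99%, followed by *ADAMTS6* (18.9%), *ADAMTS1* (18.4%), *ADAMTS5* (16.2%) and *ADAMTS17* (8.60%). In the TGF-β1 library *ADAMTS6* came first at 34.0%, followed by *ADAMTS5* (21.8%), *ADAMTS12* (20.2%), *ADAMTS17* (6.86%) and *ADAMTS1* (6.55%). *ADAMTS4*, *ADAMTS7*, *ADAMTS9* and *ADAMTS10* each held at most 5.27% in either library. Because the 3′ protocol is designed to count transcripts from their ends, these levels were not divided by gene length. Whether intronic reads were also counted is not given in the sources used here, and the capture of different genes may differ.

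**Figure D1:**
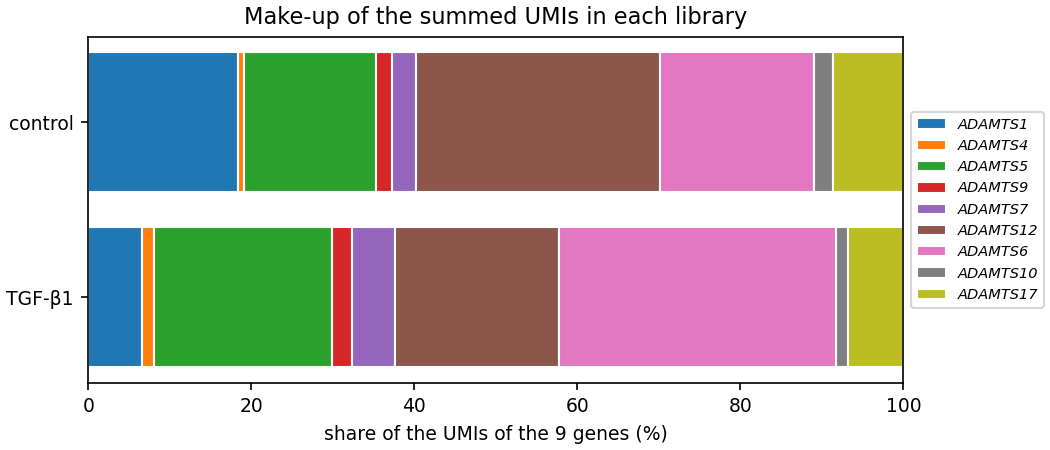
Share (%) of the UMIs of the 9 protease genes held by each gene, with 1 bar per library and kept cells only. *ADAMTS6* widened from 18.9% to 34.0% of the sum, *ADAMTS1* narrowed from 18.4% to 6.55%, and *ADAMTS12* narrowed from 29.99% to 20.2%.

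Across single genes, 5 members were higher and 4 lower after TGF-β1, and all 9 counting intervals lay to one side of 0, as did those of 81.7% of all genes averaging 1 CPM or more. Over the 9 members the log2 ratio, exposed over control, had a median of 0.26, against −0.01 over the 12116 genes averaging 1 CPM or more. *ADAMTS4* was more than 2-fold higher and *ADAMTS1* more than 2-fold lower. Of those 12116 genes, at a level that every member reached, 6.91% differed by more than 2-fold, 3.45% higher and 3.46% lower. At 10 CPM or more the share past 2-fold was 4.43%, and of the 6 members at that level *ADAMTS1* was past it. A difference of more than 1.5-fold was reached by 6 members, 3 higher and 3 lower, against 17% of these genes, 7.64% higher and 9.36% lower.

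**Figure D2:**
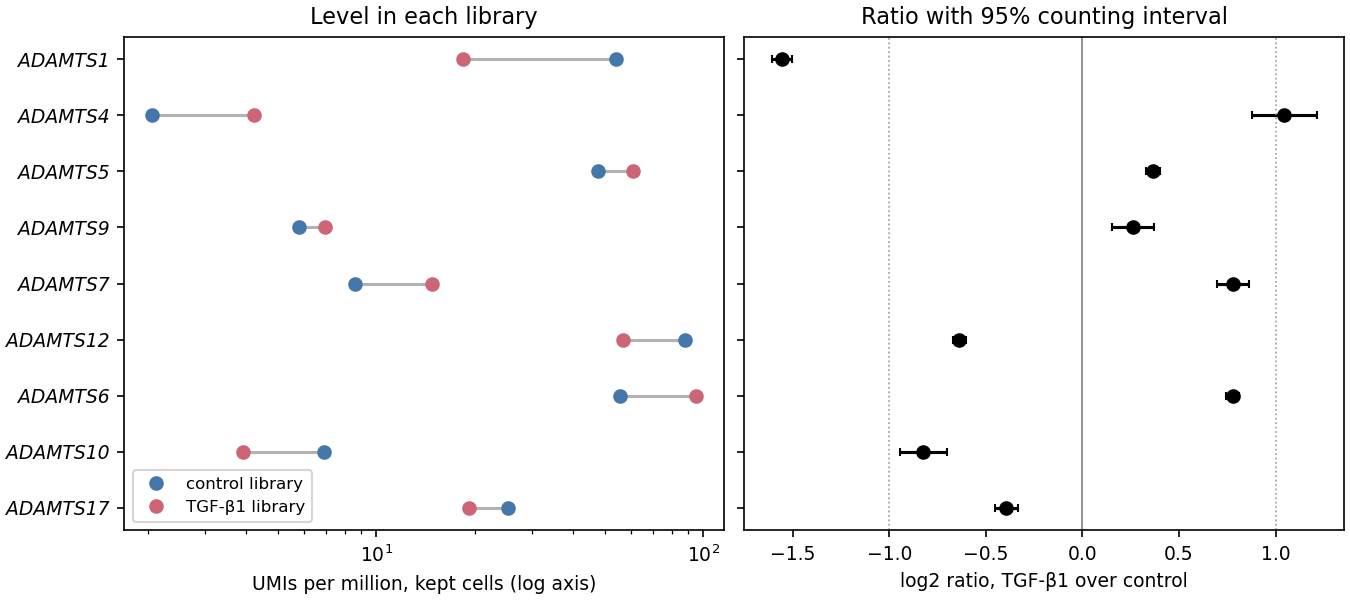
Left, level of each gene in either library (UMIs per 1000000 over kept cells, log axis, 1 point per library). Right, log2 ratio of TGF-β1 over control with the 95% counting interval, dotted lines at 2-fold. *ADAMTS1* lies furthest to the left at −1.56, *ADAMTS4* furthest to the right at 1.04.

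Among the proteoglycan-cutting members, *ADAMTS1* fell. It encodes a protease first known as an inflammation-induced gene and required in the mouse for normal ovulation. Its level was 54.1 CPM in control (11385 UMIs) and 18.4 CPM in exposed cells (4041 UMIs), a 2.94-fold lower level with a log2 ratio of −1.56 (−1.61 to −1.50). Of the 7658 genes with a mean of 10 CPM or more, 0.77% had a lower ratio. *ADAMTS4*, which encodes an aggrecanase, was the least abundant member of the control library and moved the other way. Its level was 2.05 CPM (432 UMIs) in control and 4.23 CPM (930 UMIs) in exposed cells, with a log2 ratio of 1.04. The interval of 0.88 to 1.21 spans 2-fold, and with the deepest cells (past the 98th percentile of UMIs) left out the ratio was 0.9998, just inside it.

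*ADAMTS5*, the principal aggrecanase of mouse cartilage, was measured at 47.5 CPM in control and 61.1 CPM in exposed cells, a log2 ratio of 0.36 (0.33 to 0.40). *ADAMTS9*, which encodes the widely conserved versican-cutting member, was measured at 5.81 and 6.97 CPM, a log2 ratio of 0.26 (0.15 to 0.37). Neither reached 1.5-fold. The 4 proteoglycan-cutting members together summed to 109.4 CPM in control and 90.7 CPM in exposed cells. Without division by length, *ADAMTS1* exceeded *ADAMTS5* in the control library, and *ADAMTS5* was the most abundant of the 4 after TGF-β1. In the RefSeq annotation of another horse assembly, *ADAMTS1* and *ADAMTS5* are neighbouring coding genes, and these neighbours differed in direction.

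Both COMP-cutting members were past 1.5-fold, in opposite directions. *ADAMTS7*, which encodes a protease linked to vascular disease, was measured at 8.62 CPM (1814 UMIs) in control and 14.8 CPM (3248 UMIs) in exposed cells, with a log2 ratio of 0.78 (0.70 to 0.86). *ADAMTS12* was measured at 88.2 CPM (18556 UMIs) and 56.7 CPM (12450 UMIs), a log2 ratio of −0.64 (−0.67 to −0.60). *ADAMTS12* was the more abundant of the pair in both libraries, at a level 10.2-fold that of *ADAMTS7* in control and 3.83-fold after TGF-β1.

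Among the fibrillin-binding members, *ADAMTS6* was higher and *ADAMTS10* and *ADAMTS17* were lower after TGF-β1. *ADAMTS6*, the paralog of *ADAMTS10*, was measured at 55.5 CPM (11690 UMIs) in control and 95.3 CPM (20938 UMIs) in exposed cells, a 1.72-fold higher level with a log2 ratio of 0.78 (0.75 to 0.81). *ADAMTS10* was measured at 6.91 CPM (1454 UMIs) and 3.90 CPM (858 UMIs), a 1.77-fold lower level with a log2 ratio of −0.82 (−0.95 to −0.70). The paralogs moved apart, from an 8.04-fold difference in level in the control library to a 24.4-fold difference after TGF-β1. *ADAMTS17* was measured at 25.3 and 19.3 CPM, a log2 ratio of −0.39 (−0.45 to −0.33). In the other assembly, *ADAMTS6* overlaps the coding gene *CENPK* and 1 long non-coding RNA, *ADAMTS17* overlaps 2 long non-coding RNAs and *ADAMTS5* overlaps 1, and reads from such overlaps were not separated here.

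The share of cells with a transcript followed the levels. Because the libraries differed in depth, the shares were taken after thinning to 20000 UMIs per cell. The share of cells with at least 1 *ADAMTS1* UMI was 42.7% (41.1 to 44.2) in control and 22.5% (21.3 to 23.7) in exposed cells. For *ADAMTS6* the share was 53.5% (51.9 to 55.1) and 73.8% (72.5 to 75.0), and for *ADAMTS5* 46.1% and 56.9%. *ADAMTS12* was found in the largest share of control cells, 66.2%, and in 54.0% of exposed cells. *ADAMTS4* was found in 3.34% and 7.49% of cells, *ADAMTS7* in 15.1% and 24.0%, *ADAMTS9* in 8.64% and 10.7%, *ADAMTS10* in 12.4% and 7.07%, and *ADAMTS17* in 27.0% and 21.5%. The intervals of the 2 libraries did not overlap for any of the 9 genes, nor for 53.2% of all genes averaging 1 CPM or more. Before thinning the shares ranged from 8.87% (*ADAMTS4*) to 85.6% (*ADAMTS12*) in control cells and from 16.3% (*ADAMTS4*) to 88.9% (*ADAMTS6*) in exposed cells. No cell type that should lack these genes was present, so the share that free RNA would give was not measured.

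**Figure D3:**
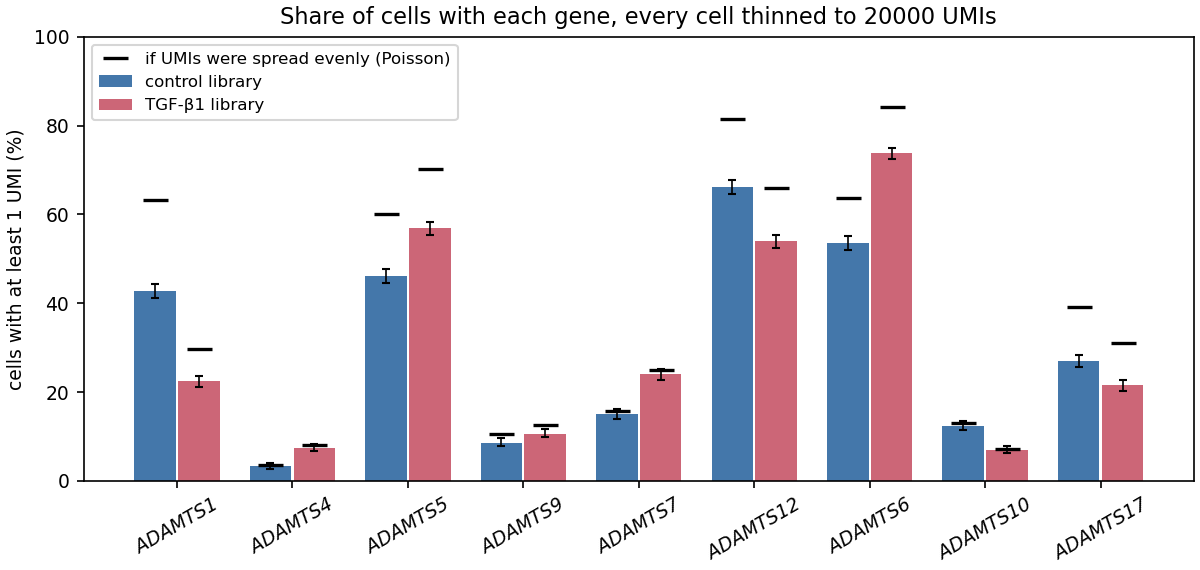
Share of kept cells (%) with at least 1 UMI of each gene after thinning every cell to 20000 UMIs, by library, with 95% binomial intervals. Black dashes give the share if the same UMIs were spread evenly over cells: the bars of *ADAMTS1* in the control library reach 42.7% against 63.3%, and those of *ADAMTS10* in exposed cells 7.07% against 7.11%.

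The members differed in how unevenly their transcripts were spread over cells. With the same UMIs spread evenly, a Poisson spread, 63.3% of control cells would hold *ADAMTS1*, against the observed 42.7%. The ratio of variance to mean of its thinned UMIs, which is 1 for a Poisson spread, was 2.98 in control and 1.97 in exposed cells. *ADAMTS5* (3.08 and 2.84), *ADAMTS12* (2.63 and 2.13), *ADAMTS17* (2.79 and 2.23) and *ADAMTS6* (1.81 and 1.85) were also uneven. The remaining 4 genes lay closer to 1, from 1.02 for *ADAMTS10* after TGF-β1 to 1.61 for *ADAMTS9* in the control library. A single control cell held 110 *ADAMTS5* UMIs before thinning, against a median of 1 per control cell.

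The upper end of the distribution of *ADAMTS1* thinned out after TGF-β1, and that of *ADAMTS6* filled. Cells with at least 5 thinned *ADAMTS1* UMIs numbered 198 of 3865 control cells (5.12%) and 31 of 4513 exposed cells (0.687%). For *ADAMTS6* these were 112 (2.90%) and 381 (8.44%), and for *ADAMTS12* 326 (8.43%) and 161 (3.57%). Within the cells that held a transcript, the mean number of thinned *ADAMTS1* UMIs was 2.35 in control and 1.58 in exposed cells, so both fewer positive cells and fewer UMIs per positive cell went with the lower level. For *ADAMTS6* this mean was 1.90 and 2.51.

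The leading protease of a cell, the member with more thinned UMIs than any other, shifted accordingly. *ADAMTS12* led in 26.1% (24.7 to 27.5) of control and 13.2% (12.3 to 14.3) of exposed cells. *ADAMTS6* led in 12.3% (11.3 to 13.4) and 33.2% (31.9 to 34.6), and *ADAMTS1* in 13.7% (12.6 to 14.8) and 3.06% (2.58 to 3.60). *ADAMTS5* led in 11.1% and 15.9%. No single member led in 29.9% of control and 28.9% of exposed cells.

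At equal depth a cell held nearly the same number of the 9 transcripts in both libraries. The mean was 2.75 in control cells and 2.78 in exposed cells, with a median of 3 in each. None of the 9 was found in 3.08% and 2.88% of cells, and 5 or more in 8.59% and 9.26%. If each gene were spread independently of the others, 7.69% and 7.57% of cells would hold 5 or more, and 2.33% and 1.85% none. The largest number in 1 thinned cell was 7 in control and 8 in exposed cells.

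At least 1 proteoglycan-cutting member was found in 71.3% (69.8 to 72.7) of thinned control cells and 71.2% (69.8 to 72.5) of exposed cells. The shares were close although the 4 genes differed in direction. At least 1 COMP-cutting member was found in 70.8% (69.4 to 72.2) and 64.4% (63.0 to 65.8). At least 1 fibrillin-binding member was found in 70.2% (68.7 to 71.6) and 80.5% (79.3 to 81.6).

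For most pairs of members, the interval of the share of cells holding both included the product of the 2 shares. Over the pairs with at least 20 expected cells, the median of observed over expected was 1.02 for 33 control pairs, with a range of 0.80 to 1.29. In the TGF-β1 library it was 1.05 for 36 pairs, with a range of 0.88 to 1.28. The observed number was above the product for 20 of the 33 control pairs and for 33 of the 36 in the TGF-β1 library. The interval lay above 1 for 3 control and 5 TGF-β1 pairs. These intervals take the product as fixed. The same counts were not made for pairs of other genes, and doublets were left in, so the counts are not particular to the proteases. *ADAMTS9* and *ADAMTS17* stood above the product in both libraries, in 116 control cells against 90.0 expected (1.29) and 132 exposed cells against 104 (1.27). *ADAMTS12* and *ADAMTS17* also did, at 1.11 and 1.09. *ADAMTS1* and *ADAMTS17* were the single pair with an interval below 1, in 404 control cells against 445 expected (0.91). The neighbours *ADAMTS1* and *ADAMTS5* were found together in 816 control cells against 760 expected (1.07). With expected values computed within rebuilt clusters, the medians were 1.00 and 1.03, with 17 and 27 pairs above the product.

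**Figure D4:**
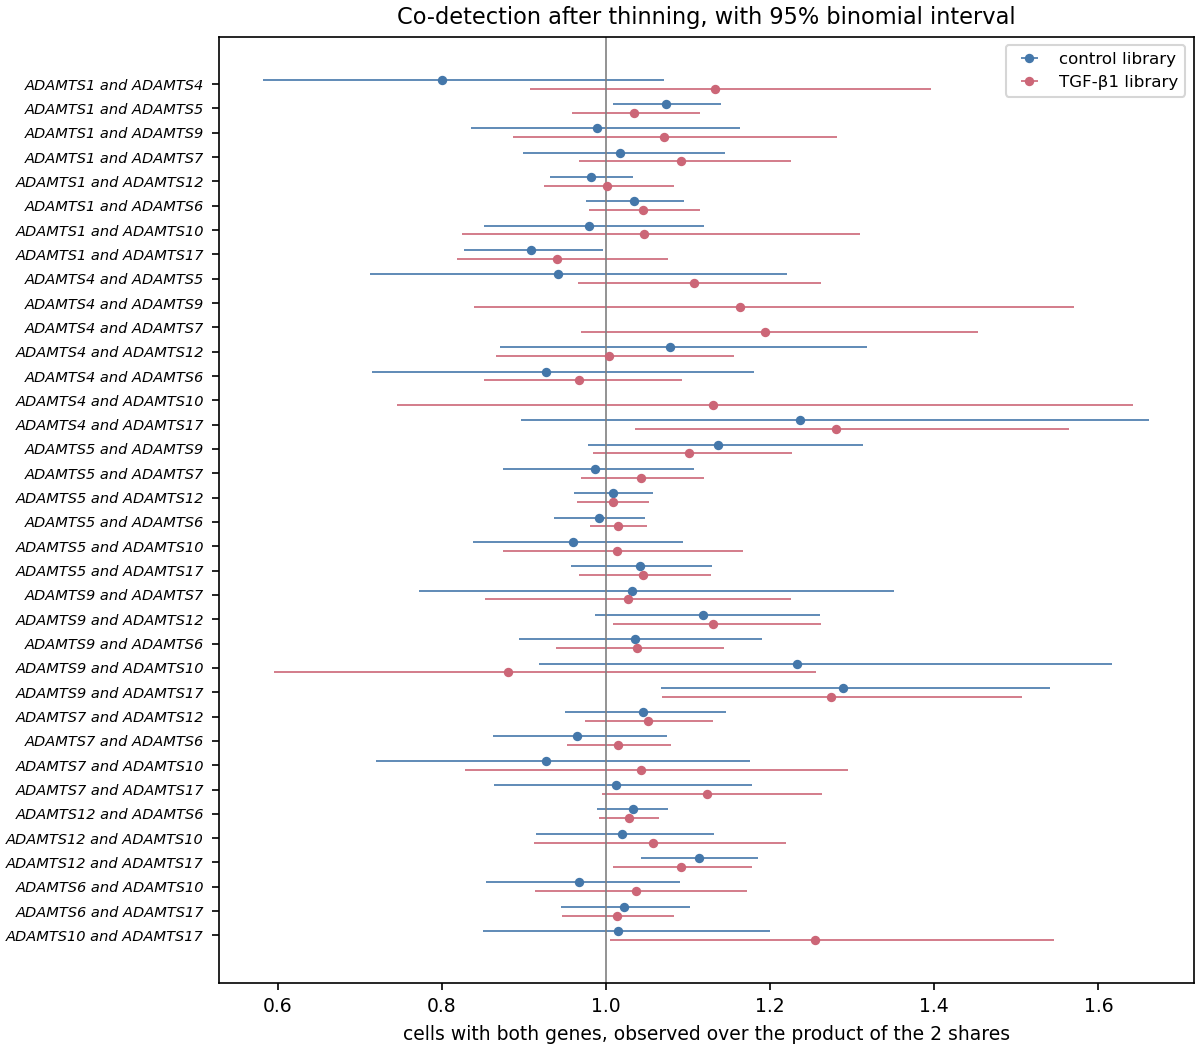
Cells holding both genes of a pair, observed over the product of the 2 shares, after thinning to 20000 UMIs, with 95% binomial intervals for the control and TGF-β1 libraries; pairs with fewer than 20 expected cells are not drawn. Most intervals cross 1, and *ADAMTS9* with *ADAMTS17* lies at 1.29 and 1.27.

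To see whether the differences lay in all groups of cells, cells were clustered after integration of the libraries, with all ADAMTS and ADAMTS-like genes left out of the clustering genes. This gave 8 clusters, numbered 0 to 7, which were rebuilt here and are not those of the study. Cluster 6 was cycling-like, with all 9 of the cycling markers found (of 10) more than 2-fold higher, and the others are given by number. In 7 of the 9 members the direction was the same in all 8 clusters, as it was in 42.1% of the 11662 genes averaging 1 CPM or more with a ratio in every cluster. *ADAMTS6* was higher and *ADAMTS12* lower in all 8, with every interval to one side of 0, which 15.3% of these genes reached.

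*ADAMTS1* was lower in all 8 clusters and more than 2-fold lower in 6 of them. Its log2 ratio ranged from −1.96 (−2.37 to −1.56) in cluster 5 to −0.19 (−0.59 to 0.19) in cluster 7. In cycling-like cluster 6 it was −0.94 (−1.16 to −0.73). Cluster 7, which was led by *CA4* and *GDF15* and held 107 control and 56 exposed cells, had the lowest control level of *ADAMTS1*, 32.5 CPM, and after TGF-β1 the highest, 28.4 CPM.

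*ADAMTS6* showed its smallest ratio, 0.21 (0.10 to 0.31), in cycling-like cluster 6, where its level was the highest of all clusters in both libraries (139 and 161 CPM) and the median depth per cell was 60272 UMIs. Its largest ratio, 1.36 (1.04 to 1.69), was in cluster 7, at 25.5 and 65.5 CPM. Cells that held 3 or more cycling markers once thinned, 104 control and 111 exposed cells, gave a like value of 0.23 (0.10 to 0.35). Without them the log2 ratio of *ADAMTS6* over the library was 0.82 (0.79 to 0.86). Reads from its overlap with the coding gene *CENPK* in the other assembly were not separated. Their part in these levels was not tested.

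*ADAMTS4* (0.63 to 1.46) and *ADAMTS7* (0.42 to 0.96) were higher in all 8 clusters, and *ADAMTS10* (−1.88 to −0.76) was lower in all 8. *ADAMTS17* was lower in all 8, from −1.85 in cluster 5 to −0.02 in cluster 0, with 5 intervals below 0. *ADAMTS5* was higher in 7 clusters and had −0.16 (−0.38 to 0.05) in cluster 7, where its level was the highest of all clusters in both libraries (107 and 95.8 CPM). *ADAMTS9* was higher in 7 clusters, but only 3 of its intervals lay above 0. Its 1 lower value, −0.78 (−2.37 to 0.68), rested on 12 and 7 UMIs in cluster 5.

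**Figure D5:**
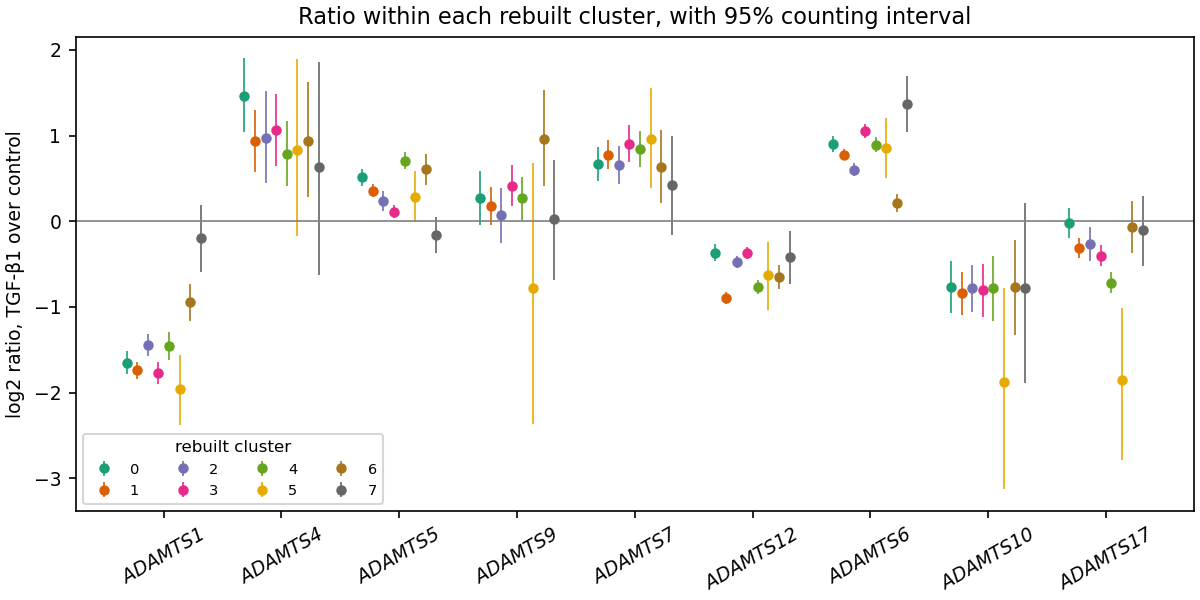
Log2 ratio of TGF-β1 over control for each gene within each of the 8 rebuilt clusters, with 95% counting intervals (1 point per cluster). *ADAMTS6* lies above 0 and *ADAMTS12* below 0 in all 8 clusters, and *ADAMTS1* spans −1.96 to −0.19.

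Levels also varied between clusters. Cluster 5 held 154 control and 190 exposed cells, was led by *CFD*, with *COMP* also among its leading genes, and had the lowest median depth of 37646.5 UMIs. In it *ADAMTS12* was at 20.2 CPM in control and 13.1 CPM in exposed cells, against up to 107 and 79.9 CPM in other clusters. *ADAMTS5*, *ADAMTS6*, *ADAMTS7*, *ADAMTS9*, *ADAMTS10* and *ADAMTS17* also had their lowest level there in both libraries. The share of all genes with their lowest level in cluster 5 was not computed, so this is not a trait particular to the proteases. *ADAMTS17* was highest in cluster 4 (46.0 and 28.1 CPM), which was led by *EPHA6* and *EDIL3*. *ADAMTS1* was highest in the control library in cluster 1, led by *CA8*, at 76.9 CPM, where its level after TGF-β1 was 23.0 CPM.

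Within bands of sequencing depth all members kept their direction, and the share of all genes that did so was not computed. The intervals of *ADAMTS9* included 0 in cells with 20000 to 35000 UMIs (−0.005 to 0.97) and with 35000 to 50000 (−0.01 to 0.37). Over 4 bands of UMIs per cell, between 20000 and over 75000, the log2 ratio ranged from −1.70 to −1.36 for *ADAMTS1*, from 0.85 to 1.48 for *ADAMTS4* and from −0.73 to −0.40 for *ADAMTS12*. For *ADAMTS6* it was 1.24 in cells with 20000 to 35000 UMIs and 0.42 in cells with over 75000. In the control library the level of *ADAMTS6* was 29.6 CPM in the first of these bands and 76.7 CPM in the last, and in exposed cells 69.9 and 103 CPM. The barcodes that failed the filters numbered 519 in control and 611 in the TGF-β1 library. Their level of every member was higher than in kept cells in both libraries, by 1.29-fold to 3.16-fold. The smallest of these differences, for *ADAMTS4* in control, rested on 10 UMIs in the failed barcodes. The same comparison was not made over all genes, so it is not a result about the proteases.

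Other genes followed the members over the 16 sums of cluster and library. These correlations are descriptions over points that share their library and the cells' cluster, chosen as the highest of many. *ADAMTS12* was closest to *ANO6* (Pearson r 0.98), *MIPOL1* (0.97) and *CARMIL1* (0.97). *ADAMTS6* was closest to *TBC1D8B* (0.98), *POLR3B* (0.97) and *MTHFD1L* (0.96), and *ADAMTS7* to *SLC40A1* (0.97), *MYLIP* (0.96) and *ETV1* (0.95). *ADAMTS1* was closest to *PARP1* (0.94), *APBB1IP* (0.93) and *AXL* (0.93), *ADAMTS5* to *IRF2BPL* (0.93), *PLCL2* (0.91) and *PURA* (0.91), and *ADAMTS17* to *KDM7A*, *CEMIP2* and *SLC38A9* (all 0.96). These values were not centred by library. With each library centred on its own mean, those of *ADAMTS1* were 0.82, 0.76 and 0.76, and those of the other members lay between 0.87 and 0.98. Among the members themselves, centred in this way, *ADAMTS9* and *ADAMTS17* were the most alike (0.96), followed by *ADAMTS12* and *ADAMTS6* (0.88). Without centring, *ADAMTS1* and *ADAMTS10* came first (0.91), followed by *ADAMTS9* and *ADAMTS17* (0.90).

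The substrates and matrix partners of the proteases were mostly higher after TGF-β1. Of 22 genes, 18 had a mean of at least 1 CPM, of which 13 were higher and 5 lower, with a median log2 ratio of 0.38 against −0.01 over all genes at that level. Among all genes at that level 48.7% were higher, and 6.91% differed by more than 2-fold in either direction. Past 2-fold were *COMP* (4.14), *FN1* (1.65), which encodes fibronectin, *TNC* (1.56), which encodes tenascin-C, and *LTBP1* (1.40), which encodes a latent TGF-β binding protein, and lower *SDC4* (−1.52). *COMP*, the substrate of *ADAMTS7* and *ADAMTS12*, rose from 0.508 CPM (107 UMIs) to 8.98 CPM (1974 UMIs), and from 0.724% to 8.95% of thinned cells. *VCAN*, which encodes versican, was measured at 643 CPM in control and 1188 CPM after TGF-β1 (0.89, 0.88 to 0.90), and *FBN1*, which encodes fibrillin-1, at 612 and 820 CPM (0.42). *ACAN*, which encodes aggrecan, had 1 UMI in control and 0 in exposed cells.

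In single cells, substrate and protease were compared at 20000 UMIs. Control cells with *ADAMTS6* held a mean of 2.97 *LTBP1* UMIs and those without it 1.95, a 1.53-fold difference, and in exposed cells these means were 7.04 and 5.47 (1.29-fold). With *ADAMTS10* the *LTBP1* mean was 0.93-fold that of cells without it in control and 1.10-fold in exposed cells, and with *ADAMTS17* it was 0.96-fold and 1.07-fold. *FBN2* was 1.13-fold and 1.19-fold with *ADAMTS6*, 0.91-fold and 1.00-fold with *ADAMTS10*, and 1.06-fold and 1.10-fold with *ADAMTS17*. *FBN1* was 1.12-fold higher in control cells with *ADAMTS6* and 1.22-fold in exposed cells. With *ADAMTS10* it was 1.03-fold and 1.06-fold, and with *ADAMTS17* 1.17-fold and 1.12-fold. *VCAN* was 1.10-fold higher in cells with *ADAMTS1* in both libraries, and between 0.96-fold and 1.04-fold with the other 3 proteoglycan-cutting members. *FN1*, compared with every member, ranged from 0.93-fold with *ADAMTS10* to 1.19-fold with *ADAMTS4*, both in control cells. With *ADAMTS6* it was 1.10-fold in control and 1.11-fold in exposed cells. *COMP* had a mean of 0.151 UMIs in exposed cells with *ADAMTS12* and 0.238 in those without it (0.63-fold). With *ADAMTS7* the mean was 0.211 and without it 0.184 (1.14-fold). *COMP* was among the leading genes of rebuilt cluster 5, where *ADAMTS12* was lowest, and the part of this cluster was not tested. *COMP* was found in 8.13% of exposed cells with *ADAMTS12* and 9.91% of those without it, and in 9.86% of cells with *ADAMTS7* and 8.66% of those without it. In control cells, where few held *COMP*, the shares were 0.782% with *ADAMTS12* (20 cells) and 0.612% without it, and 1.20% with *ADAMTS7* (7 cells) and 0.640% without it. These values describe the cells of 1 library each and were not tested. They were taken over all clusters together, although the control level of *ADAMTS6*, for one, ranged from 15.3 to 139 CPM between clusters. The same comparison was not made within clusters or for other genes, so the values are not particular to these pairs.

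Genes that activate, inhibit or take up ADAMTS proteases showed no common direction. Of the 16 genes, 14 had a mean of at least 1 CPM, of which 8 were higher and 6 lower, with a median log2 ratio of 0.02. *TIMP1*, an inhibitor of matrix metalloproteases, was past 2-fold higher (1.31), and *LRP1B*, a relative of the uptake receptor, past 2-fold lower (−2.77, from 5.82 to 0.856 CPM). *TIMP3* was measured at 31.8 and 24.0 CPM (−0.41, −0.46 to −0.35) and *LRP1* at 154 and 148 CPM (−0.07, −0.09 to −0.04). *FURIN*, an activating convertase, had a log2 ratio of 0.45, and *POFUT2*, which adds the fucose needed for secretion of these proteases, 0.67.

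Among the other ADAMTS genes, the procollagen proteases *ADAMTS2* and *ADAMTS3* had the highest CPM, not divided by length. Of 10 genes, 5 had a mean of at least 1 CPM, 3 higher and 2 lower, with a median of 0.51. *ADAMTS19* was past 2-fold higher (1.61, from 1.30 to 3.96 CPM), and *ADAMTS15*, a versican-cutting relative of *ADAMTS1*, past 2-fold lower (−1.49, from 2.00 to 0.710 CPM). *ADAMTS2* was measured at 69.2 and 55.9 CPM (−0.31) and *ADAMTS3* at 38.9 and 55.4 CPM (0.51). Of the 7 ADAMTS-like genes, which encode related proteins with no protease domain, 3 were higher and 4 lower with a median of −0.35, and *ADAMTSL2* (2.78, from 0.442 to 3.04 CPM) was past 2-fold higher.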

How the data were processed

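Single cell RNA sequencing with the Chromium 3′ v3.1 kit of 1 control and 1 TGF-β1 library was used, and MFGE8-treated cells were not analysed here. The authors deposited UMI counts per gene and barcode, made with Cell Ranger against EquCab3.0 (Ensembl annotation). The methods name version 7.1.0 and the file headers 8.0.1, and whether intronic reads were counted is not given in the sources used here. The study's cell filters were applied to the deposited counts. Its doublet calls and mare assignment by Souporcell need the reads, so doublets were left in.

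UMIs of kept cells (210497250 control, 219731144 TGF-β1) were summed per library and scaled to 1000000. Ratios carry no pseudocount, with exact binomial intervals at the 95% level. With 1 library per condition no test was run. Thinning used fixed seeds. Clusters came from Seurat 5.3.0 in R 4.3.3 (2000 variable genes less 12 ADAMTS and ADAMTS-like genes, CCA integration, 30 dimensions, resolution 0.5). Python 3.11.15 was used for sums and figures (pandas 2.3.3, numpy 2.4.6, matplotlib 3.10.9 and scipy 1.17.1), and the ratio was tested on simulated data. The genes named are all members, cell type markers and leading genes of clusters, list genes averaging 1 CPM or more and past 2-fold, and the 3 genes most like each member averaging 10 CPM or more. The genes *ADAMTS2*, *ADAMTS3*, *ACAN*, *VCAN*, *FBN1*, *TIMP3*, *LRP1*, *FURIN* and *POFUT2* were added for their roles after their values were seen. The members and lists were chosen with earlier results of these data known. *MKI67* and *KRT18* matched no symbol, and *ADAMTSL6* is another name of *THSD4*. No promoter or protein sequences were used here.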

Additional observations from a re-analysis of the deposited data

How the results depend on the processing

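Over 10 alternatives for each of the 9 members (cell filters, scaling, thinning, cycling cells left out, standardised cluster shares), all 90 log2 ratios kept their sign, and 83 stayed within the counting interval of the reported value. *ADAMTS1* ranged from −1.59 to −1.50, *ADAMTS4* from 1.00 to 1.21, *ADAMTS12* from −0.65 to −0.58 and *ADAMTS6* from 0.77 to 0.87. When the deepest cells (past the 98th percentile) were dropped, 1 member was past 2-fold in place of 2, because *ADAMTS4* came to 0.9998 on the log2 scale, and at a limit of 1.5-fold 6 were. Over all genes 339 were past 2-fold at a mean of at least 10 CPM, 837 at 1 CPM, and 970 at a limit of 1.5-fold. The mean number of members per cell was 4.25 (control) and 4.13 (TGF-β1) without thinning, and 1.25 and 1.26 when at least 2 UMIs were required. Control pairs above the product of their shares numbered 20 of 33, and 34 of 36 without thinning; in the TGF-β1 library they numbered 33 and 35 of 36. At the finest clustering 6 members in place of 7 kept one direction in every cluster, since *ADAMTS17* was higher in 2 of 11. There *ADAMTS5* was lower in 1 and *ADAMTS9* in 3 of 11 clusters. No paired analysis was possible because the cells were not assigned to mares here, which needs the reads, and for the same reason no replicate could be left out. The same 4 mares were pooled in both libraries, and differences between them were not analysed. Culture wells and library preparation cannot be told apart from the treatment.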
